A study of Mus musculus with 8 samples.

Results

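Resting basal keratinocytes of the mouse tongue were examined by single-cell RNA sequencing. They were taken as cells with 1000 to 5500 detected genes, at most 30000 unique molecular identifiers (UMIs, each a count of 1 captured RNA molecule) and at most 7% mitochondrial UMIs. They also had no UMI of the leukocyte gene Ptprc and at least 0.5% of their UMIs in the keratins Krt5, Krt14, Krt15, Krt13 and Krt6a. Within these gated keratinocytes a member carried at least 3 of the 7 markers Sostdc1, Pappa, Slitrk6, Sfrp1, Egfl6, Has3 and Dkk3, and at most 1 of the 6 mitotic genes Mki67, Top2a, Cenpf, Nusap1, Aspm and Kif11. This rule found 2409 cells, which were 18.6% of 12957 gated keratinocytes and 5.66% of 42550 deposited cells.

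The study asked how 2 cancer-related programmes act on normal oral epithelium. Groups N, E, Y and EY had 2 libraries each (N1, N2 and so on), made from viable sorted cells on day 15 of transgene induction. N mice were Krt14-CreERT/LSL-rtTA, and per the study's methods all groups also carried a tetracycline-dependent H2B-GFP reporter and received tamoxifen in the tongue and doxycycline in the chow. E mice added tetON_E6-E7, the oncogenes of human papillomavirus type 16, Y mice added tetON_YAP1S127A, a form of the transcriptional coactivator YAP that escapes inhibition by the Hippo pathway, and EY mice carried both. The mice were adult littermates, and Krt14-CreERT limits induction to Krt14-expressing epithelial cells and their descendants. The title of N2 holds more than 1 animal number, so that library may pool animals. Y2 stands apart in sex: its members had 570 UMIs of Xist, the RNA of the inactive X chromosome, and 0 of 4 Y-linked genes, while each other library had 0 or 1 UMI of Xist and at least 6 of the Y-linked genes. Sex and replicate therefore cannot be told apart within Y.

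The lining of the tongue is a stratified squamous epithelium. Basal keratinocytes sit on the basement membrane, anchored by hemidesmosomes, and are the layer in which cells divide, while their daughters move up and make keratins and barrier proteins of the upper layers. Several of the markers that define the resting basal cells are secreted inhibitors of signalling: Sostdc1 binds BMP ligands and Wnt co-receptors, Sfrp1 binds Wnt ligands, and Dkk3 belongs to the Dickkopf family. Pappa is a protease that cleaves IGF-binding proteins, Has3 makes hyaluronan, Slitrk6 is a membrane protein with leucine-rich repeats and Egfl6 is a secreted matrix protein.

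The number of resting basal cells differed widely between libraries. N1 held 866, N2 134, E1 957, E2 227, Y1 156, Y2 52, EY1 9 and EY2 8 of them. As a share of gated keratinocytes N1 had 25.1% (95% exact Clopper-Pearson interval 23.7 to 26.6), N2 32.3% (27.8 to 37.0), E1 23.6% (22.3 to 24.9) and E2 41.0% (36.9 to 45.3). Y1 had 12.1% (10.4 to 14.0), Y2 5.19% (3.90 to 6.76), EY1 5.29% (2.45 to 9.81) and EY2 0.395% (0.171 to 0.776). The intervals cover counting error only. Each of the 4 YAP libraries was below each of the 4 others, at 5.75% ± 4.81 (SD, n = 4) against 30.5% ± 7.98 (SD, n = 4). The members were chosen by measured marker and cell-cycle genes, and these markers with their behaviour under YAP known, so the share is a description and was given no test.

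Detection of a marker depends on the depth of a cell, and the members' median depth ran from 10846.5 UMIs (EY2) to 24689.5 (N2). With each cell thinned to 3000 UMIs, N1 had 4.28%, N2 3.70%, E1 4.63%, E2 8.46%, Y1 1.73%, Y2 0.807%, EY1 0.654% and EY2 0.0497%. The order of the YAP libraries and the others was kept at this equal depth. Cells with none of the 7 markers made up 12.7 to 17.3% of the resting gated keratinocytes of N and E libraries, 41.0% of those of Y1, 66.1% of Y2, 71.4% of EY1 and 82.2% of EY2. These shares used all UMIs of a cell. In EY1 the cells with none had a median of 5958.5 UMIs, against 22993 with 1 marker, and in N2 9347 against 21966. All resting cells of EY1 with 0 or 1 marker held 2 or more genes of a list of immune genes, and so did all 9 of its members.

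**Figure D1:**
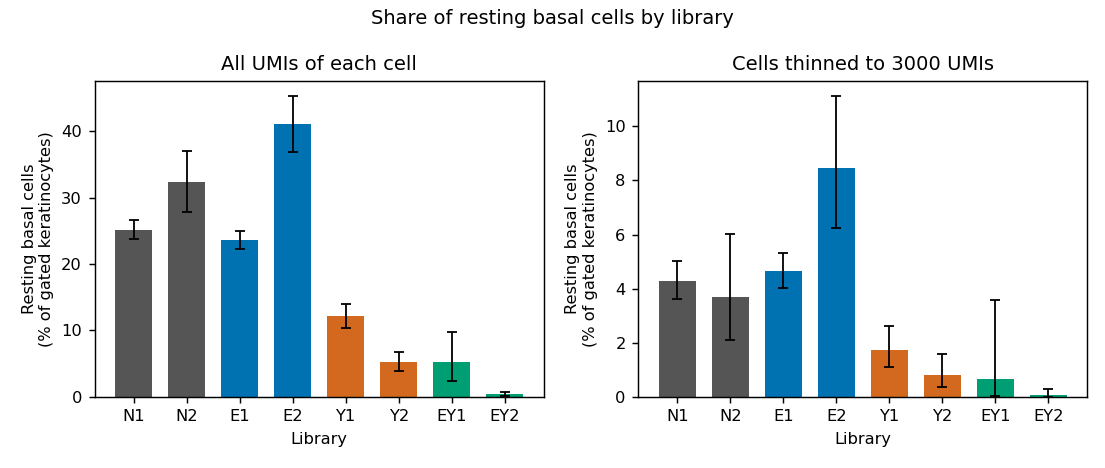
Resting basal cells as a percentage of gated keratinocytes in each of the 8 libraries, with all UMIs of a cell (left) and with each cell thinned to 3000 UMIs (right). Bars are 1 library each and error bars are 95% exact binomial intervals; Y and EY libraries lie at 12.1% or less on the left, and N and E libraries at 23.6% or more.

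Among cells with at least 3 markers, those with 2 or more mitotic genes were left out as cycling. Their share of the cells with at least 3 markers was 38.3% for N1, 37.4% for N2, 36.8% for E1, 35.0% for E2, 31.9% for Y1, 54.0% for Y2, 55.0% for EY1 (11 of 20 cells) and 82.2% for EY2 (37 of 45 cells). The 2 EY libraries and Y2 thus had the highest cycling share among marker-bearing cells.

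Of all members 47.0% carried exactly 3 markers, 31.9% carried 4, 14.4% carried 5, 5.44% carried 6 and 1.29% carried all 7. Sfrp1 was detected in 78.5% of members, Pappa in 76.0%, Dkk3 in 68.0%, Sostdc1 in 60.5%, Has3 in 40.5%, Egfl6 in 34.3% and Slitrk6 in 24.2%. Just inside the threshold, with 3 markers, Sfrp1 was detected in 68.0% and Slitrk6 in 13.4% of cells. Just outside it, in 1403 resting cells with 2 markers, the shares were 50.8% and 7.63%. In Ptprc-positive cells, which should lack these genes but were shallower (median 3828 UMIs in N1, against 13270.5 in its members), the share pooled over libraries was at most 1.79% for each marker. By library it reached 9.88% for Sfrp1 in E1, where 84.0% of members carried it.

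Marker levels in the members were given as CPM, the UMIs of a gene scaled to a common total of the members' UMIs in a library. Pappa had the highest level, at 252.8 and 163.3 CPM in N, 181.3 and 235.7 in E, and 319.3 and 347.7 in Y. Sostdc1 was at 156.9 and 153.6 CPM in N, 156.9 and 129.6 in E, and 93.4 and 68.2 in Y. Thus Pappa was highest and Sostdc1 lowest in the 2 Y libraries among these 6. Has3 stood at 29.9 and 32.1 CPM in N, 50.5 and 43.7 in E and 11.9 and 22.0 in Y, with no overlap between the groups. Slitrk6 was at 14.0 to 28.9 CPM and Dkk3 at 61.6 to 76.7, without an order by group. These levels concern the genes that chose the cells, and were not tested.

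**Figure D2:**
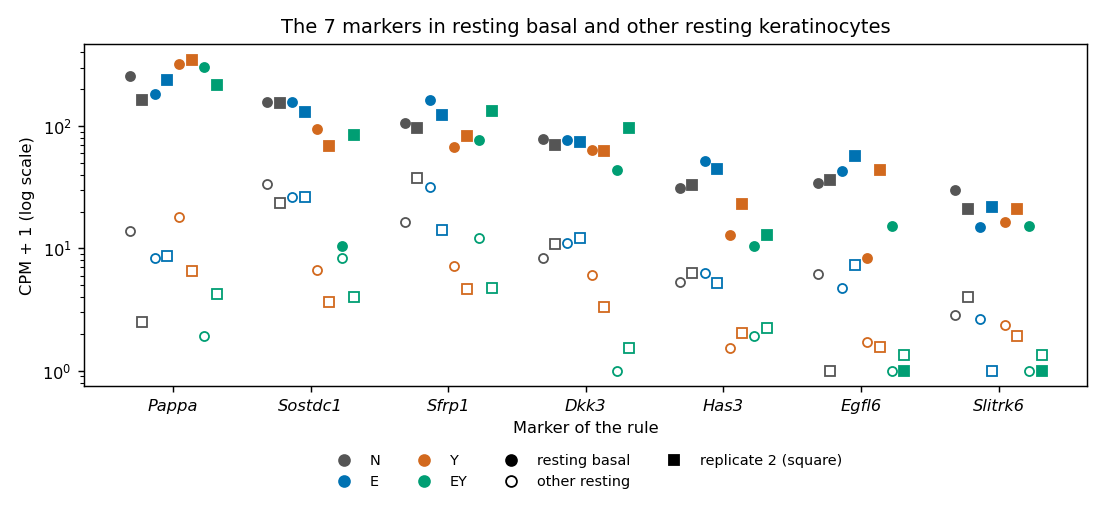
Level of each of the 7 markers (CPM + 1, log scale) in resting basal cells (filled) and other resting keratinocytes (open), 1 symbol per library, coloured by group, squares for replicate 2. In the 6 N, E and Y libraries every marker was higher in the resting basal cells, as the rule requires, with Pappa at 163.3 to 347.7 CPM.

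The label was checked with genes that the rule did not use. Members were set against the other resting keratinocytes of the same library, 3618 gated cells in all with 0 or 1 marker and at most 1 mitotic gene, as the log2 ratio of CPM + 1. EY1 and EY2 held fewer than 20 members, so this description covers 6 libraries. Since the rule made this contrast, it carries no test. Of 5320 genes at 20 CPM or more in 1 of the classes, 1053 were higher in the members in all 6 libraries and 1042 in none, and the median ratio over all genes was 0.07.

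Genes of the basal layer mostly lay higher in the members, with a median log2 ratio of 0.72 and 15 of 18 genes above 0. Of the 18 genes, 6 were higher in all 6 libraries and 1 was higher in none. Against cycling cells with at least 3 markers the median of this list was 0.06. Trp63, the master regulator of stratified epithelia, averaged 278 against 168 CPM and was higher in all 6 libraries (0.72). The hemidesmosome integrin Itgb4 averaged 213 against 117 CPM (1.04). Its partner Itga6 (0.93) and the hemidesmosome collagen Col17a1 (0.86) were higher in 5 of 6 libraries, with Y2 not among them in the per-library levels given further on. By contrast, 0 of 23 genes of suprabasal differentiation had a ratio above 0, and their median was −2.47. Krt4, the keratin of the upper layers of lining mucosa, averaged 280 against 2363 CPM. Cnfn, a component of the cornified envelope, averaged 2.34 against 332 CPM (−6.07).

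Outside the rule, the highest ratios were those of Hpgd, Crabp1, Bmp3 and Dusp6. Hpgd, which inactivates prostaglandins, had the highest ratio, 2.56, at 279 to 733 CPM in the members of a library and 44.4 to 138 CPM in the other cells. Crabp1, a carrier of retinoic acid inside cells, averaged 218 against 42.8 CPM (2.32). Bmp3, an atypical BMP ligand that can oppose BMP signalling, averaged 21.9 against 3.85 CPM (2.23). Igfbp4, an IGF-binding protein that Pappa is known to cleave, averaged 72.9 against 26.3 CPM (1.63). Each of these ratios was above 0 in all 6 libraries. Against cycling cells with at least 3 markers the median ratio was 0.12 for Hpgd, −0.16 for Crabp1 and −0.05 for Bmp3. These 3 genes thus stood at similar levels in resting and cycling marker-bearing cells. For Dusp6 that ratio was 0.48 and for Igfbp4 0.58, above 0 in all 6 libraries.

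Of the list of EGF receptors, ligands and their inhibitors 7 of 15 ratios were above 0 (median −0.14), and 3 genes, all inhibitors, were higher in all 6 libraries. Dusp6, a phosphatase that switches off ERK, averaged 68.0 against 16.6 CPM (2.13), and its ranges of 58.3 to 79.5 and 5.43 to 30.8 CPM did not overlap. The Sprouty genes Spry2 (1.32) and Spry1 (1.09), which act on the same pathway, were higher in all 6 libraries. Creb5 (1.57), Irx4 (1.53), Megf6 (1.57), Fndc1 (1.62), Tns1 (1.47), Rapgef5 (1.46) and Itm2c (1.44) completed the 12 highest ratios. Against cycling cells with at least 3 markers the ratios of these genes ran from −0.25 (Fndc1) to 0.33 (Itm2c). Among the lowest ratios to the other resting keratinocytes were the barrier genes Sprr1a (−5.88) and Sprr1b (−5.20) and the keratins Krt6b (−4.92), Krt23 (−4.09) and Krt19 (−3.98). With them stood Mal (−5.38), Psca (−4.61), Cldn4 (−4.34) and Rbp2 (−4.06).

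Genes of growth arrest were mixed. Of 26 genes on a list of quiescence and growth arrest, 18 had a ratio above 0, with a median of 0.36. Gas1, a membrane protein found in growth-arrested cells, averaged 187 against 66.2 CPM (1.39), and the D-type cyclin Ccnd2 averaged 404 against 165 CPM (1.43). Cdkn1a, which encodes the cell-cycle inhibitor p21, averaged 78.9 against 357 CPM (−2.35), and Cdkn2b, which encodes p15, averaged 1.02 against 14.5 CPM (−2.22). Thus the inhibitors Cdkn1a and Cdkn2b were lower in the resting basal cells in all 6 libraries, while Gas1 and Ccnd2 were higher.

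A list of G1/S and replication genes had a median ratio of 0.60, with 34 of 37 genes above 0, in members that carried none (1501 cells) or 1 (908 cells) of the 6 mitotic genes. Cycling cells with at least 3 markers were chosen by their mitotic genes, so a contrast with them carries no test either. Against them the G1/S list stood at −0.92, and a list of G2/M genes outside the rule at −3.83. Against the other resting keratinocytes the G2/M list had a median of 0.08, with 12 of 23 genes above 0. Immediate early genes of the AP-1 family were higher in 20 of 23 cases (median 0.40). Fos averaged 1977 against 1230 CPM. Wnt pathway genes outside the rule showed no common direction, with 15 of 29 ratios above 0 and a median of 0.10.

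Signs of other cells were measured in the same sums. Of a list of immune genes, the summed level was 36.7 to 183.6 CPM in the 6 libraries with at least 20 members, highest in Y1, where 78.8% of members held 2 or more of its genes. In EY1 it was 1950 CPM and in EY2 263 CPM, where 100% and 50% of members held 2 or more of its genes. Haemoglobin genes reached 2216 CPM in Y2 and 281 CPM or less elsewhere. Endothelial genes stayed at 0.6 CPM or less, and the fibroblast list was nearly all Dcn, with Col1a1 at 2.0 CPM or less. A list of gland, taste and Merkel cell genes summed to 95.7 and 215 CPM in N members, 67.2 and 57.2 in E and 14.3 and 7.70 in Y. In the other resting keratinocytes it summed to 323 and 5139 CPM in N, 285 and 2173 in E and 174 and 19.3 in Y. Of 25199 cells within the limits on genes, UMIs and mitochondrial share, 82 had a barcode that another library also held, among them 17 members.

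The effect of the E6-E7 oncogenes was tested with sums of UMIs per library in edgeR, with quasi-likelihood tests and Benjamini-Hochberg adjustment over all genes. The E and Y comparisons share the N libraries. In E resting basal cells 45 genes rose and 0 fell, at an adjusted p under 0.05, which is 0.424% of 10621 genes tested. An unadjusted p under 0.05 was reached by 683 genes. Most of the 45 belong to the response to type I interferon: of 38 tested interferon-stimulated genes 27 rose, and 37 had a fold change above 0. Their median log2 fold change was 2.72, beside −0.01 over all genes. Summed over the list, the level was 1224 and 830 CPM in the N libraries, and 5525 and 5202 CPM in the E libraries.

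Isg15, a ubiquitin-like protein that is conjugated to other proteins during an antiviral response (chromosome 4, 156199424 to 156200818, minus strand, mm10), stood at 62.4 and 18.8 CPM in N and 668 and 429 CPM in E, here scaled by trimmed mean of M-values (TMM). Its log2 fold change was 3.69 ± 0.53 (SE, edgeR adjusted p = 0.029). Rsad2, which encodes the antiviral enzyme viperin, was at 2.01 and 0 CPM in N and 70.5 and 24.3 in E (4.99 ± 0.68, edgeR adjusted p = 0.022). Ifi44 was at 8.29 and 3.57 CPM in N and 96.5 and 81.1 in E (3.70 ± 0.44). In these 3 genes the E levels lay far above the N levels. Ifit1, an RNA-binding antiviral protein, was at 18.8 and 5.20 CPM in N and 148 and 88.2 in E (3.10 ± 0.49, edgeR adjusted p = 0.040). Ifi27l2a was the most abundant, at 288 and 359 CPM in N and 2119 and 2540 in E (2.85 ± 0.35).

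Factors that carry the interferon signal rose as well. Irf7, which amplifies interferon production, was at 9.54 and 5.85 CPM in N and 95.7 and 48.0 in E (3.12 ± 0.41, edgeR adjusted p = 0.022). The transcription factors Stat2 (2.18) and Irf9 (1.53), which act downstream of the interferon receptor, rose too, and so did the RNA sensors Ifih1 (1.66), Ddx58 (2.24) and Dhx58 (3.04). The paralogs Apol9a (3.36 ± 0.36) and Apol9b (3.41 ± 0.45) have near-identical sequence, so that the split of reads between them is uncertain, and the same holds for Oas1a and Oas1g. Of 17 genes of antigen presentation by MHC molecules, 0 passed the test in edgeR and 4 rose in DESeq2. An unadjusted p under 0.05 in edgeR was reached by 14, and 12 had a fold change above 0 (median 1.05). H2-Q6, a class I gene outside that list, rose by 2.48.

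Several of the 45 genes are known from germ cells. Zcwpw1, a reader of histone methylation in meiosis, was at 0.335 and 1.30 CPM in N and 32.0 and 19.5 in E, with 2.15 and 1.12 in Y (5.50 ± 0.50, edgeR adjusted p = 0.016). Smc1b, a subunit of the meiotic cohesin complex, had 0 UMIs in N1 and N2 and 126 and 41 UMIs in E1 and E2. Against a floor of 3 UMIs over the N group it was at least 47.7-fold higher in E, and at least 10.2-fold without N1, which held most of the N group's UMIs. Stag3, another meiotic cohesin subunit, was at 0.502 and 0 CPM in N and 10.1 and 5.73 in E (4.32 ± 0.63, edgeR adjusted p = 0.029). Rbm46, a germ cell RNA-binding protein, had 0 UMIs in N and 153 and 29 in E, at least 52.0-fold higher by the same floor. Without E1 this bound was 26.8-fold and without N1 11.1-fold. Smc1b, Stag3 and Rbm46 lay under 20 CPM and were picked after their values had been seen, with no list of germ cell genes behind them. Their E levels did not overlap the N levels.

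Cell-cycle entry genes lay higher in E, and how many passed the test depended on the tool and the setting. Of 37 G1/S and replication genes 1 rose in edgeR and 10 in DESeq2. With 2 markers sufficient for membership 11 of 38 rose in edgeR, with 4 markers required 0 of 36, and with no filter on low counts 32 of 38. The gene called by edgeR was Ccne2, which encodes cyclin E2 and was at 1.26 and 0.975 CPM in N and 8.73 and 5.37 in E (2.59 ± 0.41, edgeR adjusted p = 0.042). All 37 had a fold change above 0, with a median of 1.33. Mcm2, a subunit of the replicative helicase, was at 12.4 and 8.12 CPM in N and 39.3 and 22.9 in E (1.55 ± 0.31, edgeR adjusted p = 0.10). Mcm5 was at 21.3 and 15.6 CPM in N and 67.5 and 34.2 in E, and Pcna, the replication clamp, at 59.1 and 54.9 in N and 107 and 81.2 in E. In members without any of the 6 mitotic genes the median of the list was 1.40, with 3 of 33 genes called. Without E1 it was 0.74. Cdkn2a, a gene known to rise when the retinoblastoma protein is lost, had 4 UMIs over all members. Of 27 tested p53 targets 0 passed the test in edgeR (1 at an unadjusted p under 0.05) and 1 in DESeq2, and their median was −0.01.

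**Figure D3:**
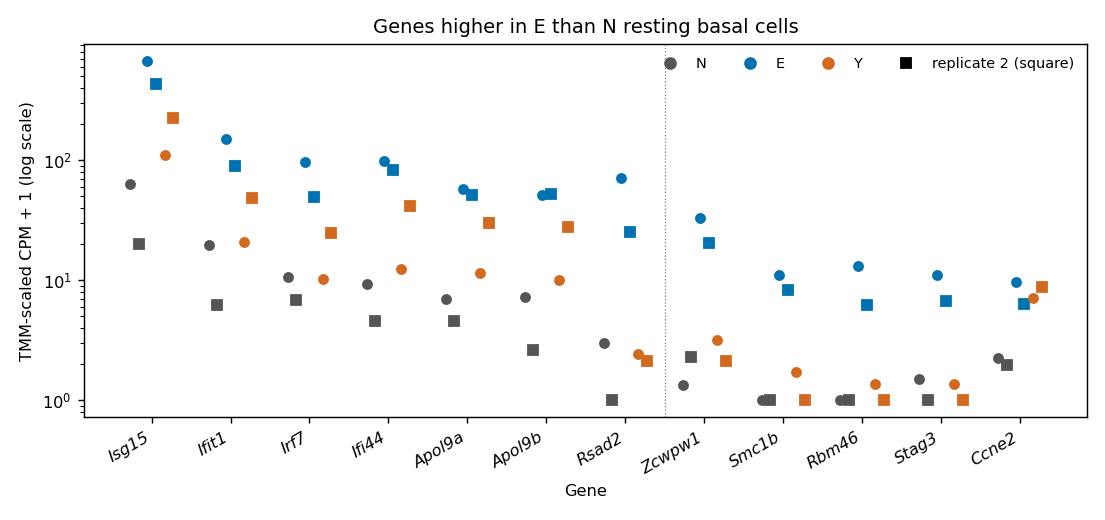
Levels of 12 of the 45 genes that rose in E (TMM-scaled CPM + 1, log scale) in the resting basal cells of N, E and Y libraries, 1 symbol per library and squares for replicate 2; the dotted line parts the interferon-stimulated genes from the others. Isg15 stood at 668 and 429 CPM in the E libraries and at 62.4 and 18.8 in the N libraries, and the E symbols lie above the N symbols in all 12 genes.

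The number of calls depended on single libraries. Without N1 the test called 11 genes, without E2 74, without N2 2 (Zcwpw1 and Krt42) and without E1 2 (Guca1a and Fosl1). Of the genes called without N2 or without E1, Zcwpw1 was among the 45, while the fold changes stayed above 0 in every one of the 45 genes that could be tested there. The median of the interferon-stimulated genes ranged from 2.50 to 3.10 when any 1 library was left out. With a library left out, its group is represented by a lone library that is assumed to vary like the others.

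The promoters of the 45 genes were searched for the core of the interferon-stimulated response element (ISRE), the letters GAAA, any 2 bases and GAAA again, or TTTC, any 2 bases and TTTC on the other strand. This element is bound by interferon regulatory factors. The search was chosen after the calls had been seen. RefSeq windows of GRCm38.p6, from 250 bases before to 50 after a start site, existed for 36 of the 45 genes. The core was present in 20 of these 36 (55.6%), beside 308 of 8441 tested genes with a window (3.65%) and 1079 of 27025 genes in all (3.99%). A motif of E2F factors, GCGGGAA or TTCCCGC, was present in 4 of the 36 (11.1%) beside 10.4% of tested genes, and the TEAD motif GGAATG or CATTCC, bound by the partners of YAP, in 5 (13.9%) beside 13.8%. A match is a description of the sequence and not a measured binding site.

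Stretches of 5 of these promoters show where the core lies in genes with some of the largest fold changes. Each is written 5′ to 3′ on the gene's strand, with matches to the core, overlapping ones joined, in capitals. They are Isg15 (chr4:156200825-156200946, minus strand, 3 matches, the first 78 bases before the start), Rsad2 (chr12:26456513-26456622, minus strand, 120 before), Ifit1 (chr19:34640735-34640863, plus strand, 2 matches, 104 before), Apol9b (chr15:77728985-77729100, plus strand, 2 matches, 37 before) and Zcwpw1 (chr5:137787552-137787653, plus strand, 208 before).
Isg15: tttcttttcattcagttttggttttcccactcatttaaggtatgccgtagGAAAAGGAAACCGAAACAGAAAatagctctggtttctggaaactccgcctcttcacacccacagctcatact
Rsad2: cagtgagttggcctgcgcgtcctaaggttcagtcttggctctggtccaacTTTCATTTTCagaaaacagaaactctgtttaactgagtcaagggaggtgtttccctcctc
Ifit1: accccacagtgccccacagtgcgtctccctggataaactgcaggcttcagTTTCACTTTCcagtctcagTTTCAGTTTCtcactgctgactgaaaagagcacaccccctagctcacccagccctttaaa
Apol9b: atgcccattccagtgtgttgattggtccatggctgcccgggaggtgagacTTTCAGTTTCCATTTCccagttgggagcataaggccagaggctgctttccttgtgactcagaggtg
Zcwpw1: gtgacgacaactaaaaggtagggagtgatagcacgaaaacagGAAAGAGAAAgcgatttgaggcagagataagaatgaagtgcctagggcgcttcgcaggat

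In the same cells the YAP transgene gave 0 calls. Y against N had 0 genes at an adjusted p under 0.05 of 10621 tested (0%), 726 at an unadjusted p under 0.05, and 25 calls by DESeq2 (0.235%). Without N1 there were 4 calls, all lower in Y (Nrp2, Wfdc18, Krt24 and Fam25c), without Y1 2, both higher (Plac8 and Xist), and without Y2 0. Yap1 itself (chromosome 9, 7931999 to 8004596, minus strand) was at 38.2 and 40.6 CPM in N, 36.5 and 46.9 in E and 160 and 77.5 in Y. The Y libraries stood above the other 4 without overlap. Its log2 fold change was 1.66 ± 0.29 (edgeR adjusted p = 0.307, DESeq2 adjusted p = 0.00209). The counts cannot tell transcripts of the transgene from those of the mouse's own gene.

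The 5 genes with the smallest p among those that met the conditions for naming did not pass the test either, each with an edgeR adjusted p of 0.307. Slc1a3, a glutamate transporter, was at 39.3 and 40.6 CPM in N and 98.6 and 74.1 in Y (1.15 ± 0.17). Defb1, an antimicrobial beta-defensin, was at 3.77 and 1.62 in N and 25.5 and 19.1 in Y (2.89 ± 0.46). Pinlyp was at 24.6 and 23.7 in N and 7.53 and 6.74 in Y (−1.73 ± 0.24), and the protease inhibitor gene Csta1 at 48.0 and 58.2 in N and 10.4 and 21.3 in Y (−1.94 ± 0.31). Wfdc18 was at 61.9 and 211 in N and 2.87 and 0 in Y. That the N and Y libraries did not overlap was a condition for naming these genes.

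YAP target genes in the resting basal cells had no stable direction in Y. Their median log2 fold change was 0.31 over 23 genes, 17 of them above 0 (all genes, 0.00), but −0.20 with 7 above 0 without Y1, 0.58 with 19 above 0 without Y2, and 0.07 with 12 above 0 when cells with 2 or more immune genes were removed. Removing those cells left 33 of 156 members in Y1 and 48 of 52 in Y2. The summed level of the list was 837 and 743 CPM in N, 828 and 706 in E, 1139 in Y1 and 721 in Y2. Y2 thus lay within the range of N and E. G1/S and replication genes had a median of 0.97, with 36 of 37 above 0. In members without any mitotic gene that median was 0.52. With cells thinned to 3000 UMIs it stood at −1.52, with 4 of 21 above 0, in a fit that held Y1 as the only Y library and N1 as the only N library. There Y1 had 22 members of 3000 UMIs each, so that counts per gene were low, and the median over all genes was −0.12. Interferon-stimulated genes had a median of 0.59, with 32 of 38 above 0, and the summed level was 1404 CPM in Y1 and 2824 in Y2. That median was 0.16 without Y2 (24 of 39 above 0), 1.11 without Y1, 0.36 without N2 and 1.43 without N1. In edgeR these 3 lists held 0 called genes, while an unadjusted p under 0.05 was reached by 6 YAP targets, 20 G1/S and 7 interferon-stimulated genes. DESeq2 called 1 gene in each list, all higher in Y. With no filter on low counts edgeR called 16 G1/S genes, 9 interferon-stimulated genes and 5 YAP targets higher, and 1 YAP target lower.

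**Figure D4:**
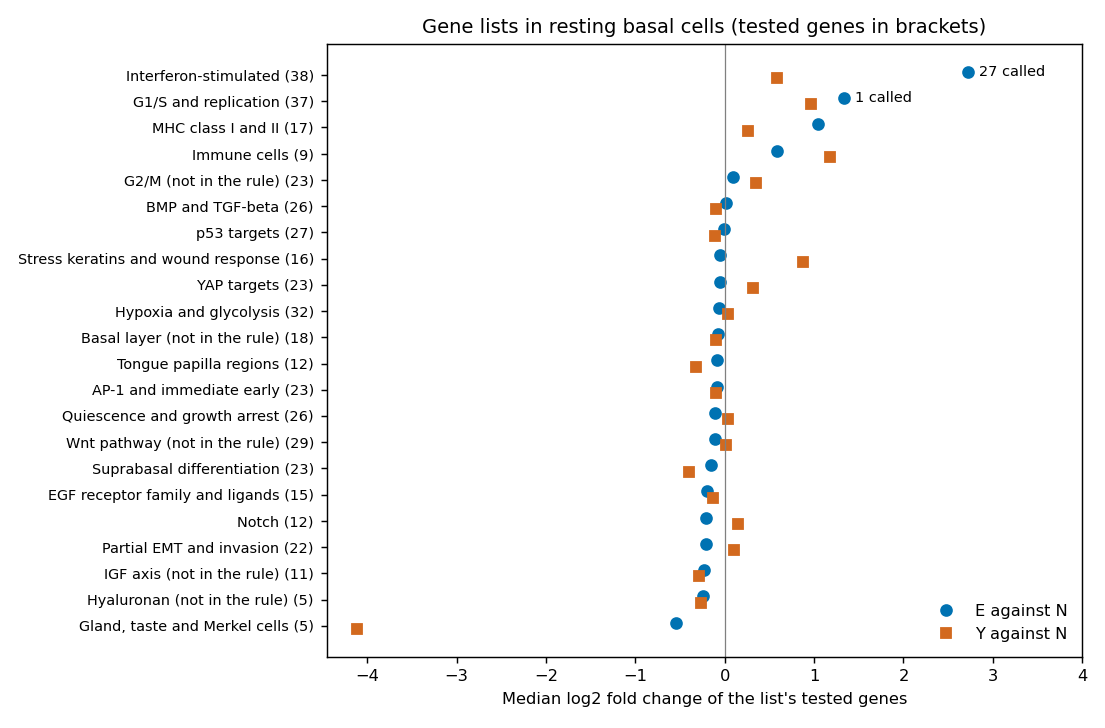
Median log2 fold change of each gene list in resting basal cells for E against N (circles) and Y against N (squares), with the number of tested genes in brackets. Interferon-stimulated genes stand at 2.72 in E, with 27 called, and G1/S and replication genes at 1.33 in E and 0.97 in Y. With thinned cells the Y value was −1.52, where Y was 22 members of Y1 alone.

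EY libraries held only 17 members, so EY was compared with N under the smaller minimum of 5 cells per library. These members summed to 209693 UMIs in EY1 and 83720 in EY2, so that CPM values there rest on few molecules. In EY1 100% and in EY2 50% of them held 2 or more genes of the list of immune genes. In this fit 46 of 10469 genes passed the test (0.439%), of which 40 rose (0.382%) and 6 fell (0.0573%), and 1277 had an unadjusted p under 0.05. Without EY1, whose members carried 1264 CPM of the macrophage and neutrophil gene Lyz2, 3 genes were called (Crct1, Sprr1b and Hist1h2ap), of which 1 was among the 46, and 39 of 46 kept their direction. Without EY2 29 genes were called, 24 of them among the 46. Of the 46 genes, 14 were over 5 times higher in Ptprc-positive cells than in the members, both pooled over all 8 libraries. The pooled members include those of E1 and E2, whose higher interferon-stimulated genes lower this ratio. A ratio to the N members alone was not computed, so more of the 46 genes may be that much higher in Ptprc-positive cells. When 2 markers were enough for membership, which gave 20 and 21 cells in EY1 and EY2, all 46 kept their direction and 33 were among the 87 genes called there (0.777% of 11199).

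Of 39 tested interferon-stimulated genes 8 rose in EY, beside 0.382% of all genes, and 38 had a fold change above 0 (median 2.66, all genes −0.19). Without EY1 0 of them were called, 31 had a fold change above 0 and the median was 2.06 (all genes −0.68). Cxcl10, a T-cell attracting chemokine, was at 27.9 and 4.67 CPM in N and 1016 and 502 in EY, unscaled (5.26 ± 0.84, edgeR adjusted p = 0.020). Isg15 was at 63.1 and 18.1 in N and 758 and 717 in EY (3.93 ± 0.50). Ifit1 (4.02), Irf7 (3.90), Rsad2 (5.42), Fmo2 (5.78) and the acute-phase gene Serpina3n (5.73) rose too. Of these, Fmo2 had 25 UMIs in EY1 and 1 in EY2, and Serpina3n 13 and 2. Defb1 was at 3.81 and 1.56 CPM in N and 81.1 and 71.7 in EY (4.46 ± 0.57). Without EY1 these 8 genes kept their sign but lost their call, with edgeR adjusted p from 0.11 (Isg15) to 0.70 (Fmo2).

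Among the 6 genes that fell was Gas1, the growth-arrest gene that is high in resting basal cells. It was at 264 and 176 CPM in N and 47.7 and 35.8 in EY (−2.52 ± 0.33, edgeR adjusted p = 0.0071). The transcription factor Maf was at 57.5 and 72.6 CPM in N and had 1 UMI in EY1 and 0 in EY2. Trps1, a GATA-type repressor, was at 174 and 175 CPM in N and 57.2 and 83.6 in EY (−1.61 ± 0.27). Lrrfip2 fell by 2.06 and Ahcyl2 fell by 1.80 on the log2 scale. In EY1 and EY2 Gas1 had 10 and 3 UMIs, Maf 1 and 0, Trps1 12 and 7, Lrrfip2 9 and 3 and Ahcyl2 8 and 2. Without EY1 these 5 genes had fold changes of the same sign and adjusted p from 0.11 to 0.22. The interaction of both transgenes had 0 calls of 10469 genes (0%) in edgeR and 685 at an unadjusted p under 0.05, and DESeq2 was not run on it.

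The difference between Y and N was also set beside the same difference in the other resting keratinocytes of the same libraries. The classes are split by markers that fewer cells carried in Y, so that other cells in a class and another level in the same cells cannot be told apart. The values below therefore describe the classes as split, and are no test of how 1 kind of cell responded to YAP. In an edgeR model that pairs both classes within a library, over 6 libraries, 31 genes outside the rule were called for unequal differences (0.257% of 12057). Of these, 10 had a higher difference in the resting basal cells (0.0829%) and 21 a lower one (0.174%), and 1081 genes had an unadjusted p under 0.05. Leaving out Y2 gave 13 calls, Y1 165, N2 107 and E2 105. The other class is not the same mixture in each group: it held 880 and 85 cells in N, 970 and 88 in E, 605 in Y1 and 480 in Y2, and a larger part of it in Y had none of the 7 markers. Its level of gland, taste and Merkel cell genes also differed widely between libraries, as given above.

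Among the 21 genes, Ahnak2, Klk10, Wnt4, Spink5, Sema3c and Hlf were lower in both Y libraries than in both N libraries in the resting basal cells, and higher in both in the other cells. Ahnak2, which encodes a large scaffold protein, was at 37.4 and 28.1 CPM in N and 16.9 and 15.4 in Y in the resting basal cells, and at 40.0 and 29.0 in N and 113 and 116 in Y in the other cells. The log2 differences were −2.71 ± 0.22 (SE) apart. Klk10, a kallikrein-related peptidase, was at 75.4 and 108 in N and 67.7 and 59.4 in Y in the resting basal cells, and at 68.1 and 104 in N and 265 and 505 in Y in the others (−2.54 ± 0.28). The ligand Wnt4 was at 253 and 303 in N and 248 and 205 in Y in the resting basal cells, and at 269 and 310 in N and 819 and 1026 in Y in the others (−1.94). Thus the classes were alike in N and apart in Y for these 3 genes.

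Spink5, an inhibitor of epidermal proteases, was at 39.2 and 57.8 CPM in N and 15.2 and 20.9 in Y in the resting basal cells, and at 180 and 145 in N and 293 and 917 in Y in the others (−2.94 ± 0.36). F3, which encodes tissue factor, the starter of coagulation and a member of the YAP target list, was at 6.62 and 7.43 in N and 10.9 and 4.40 in Y in the resting basal cells and at 19.4 and 23.4 in N and 122 and 216 in Y in the others (−2.45 ± 0.42). Igfbp3, another YAP target, stood at −2.21, the guidance ligand Sema3c at −2.40 and the transcription factor Hlf at −2.60. In Egln3 and H19 the mean level of the resting basal cells was higher in Y than in N, for H19 through Y2 alone. The hypoxia-responsive enzyme Egln3 was at 7.44 and 7.75 CPM in N and 13.7 and 46.2 in Y in the resting basal cells, and at 16.7 and 12.1 in N and 157 and 414 in Y in the others (−2.29). The imprinted RNA H19 was at 76.2 and 67.2 in N and 65.9 and 232 in Y in the resting basal cells, and at 21.1 and 23.4 in N and 107 and 282 in Y in the others (−2.24). Over the 24 tested YAP targets the median difference was −0.86, beside −0.01 over all genes, with these 2 called.

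The hemidesmosome genes Itga6 and Col17a1 were also among the 21. Itga6 was at 258 and 325 CPM in N and 197 and 172 in Y in the resting basal cells, and at 132 and 154 in N and 196 and 241 in Y in the others (−1.23). Col17a1 was at 435 and 589 in N and 416 and 318 in Y in the resting basal cells, and at 200 and 324 in N and 389 and 437 in Y in the others (−1.17). In Y2 both genes were higher in the other resting cells than in the resting basal cells. The median difference of the 18 basal layer genes was −0.73, with these 2 called.

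The genes Aldh3a1, Nqo1, Gpx2 and Dcn had a higher difference in resting basal cells, and in the other cells both Y libraries lay below both N libraries. Aldh3a1, an aldehyde dehydrogenase, was at 96.2 and 97.3 CPM in N and 160 and 109 in Y in the resting basal cells, and at 317 and 240 in N and 139 and 89.8 in Y in the others (1.76 ± 0.21). Nqo1, a quinone reductase, was at 60.9 and 52.7 in N and 48.3 and 48.4 in Y in the resting basal cells, and at 107 and 67.8 in N and 28.1 and 20.6 in Y in the others (1.60 ± 0.24). Gpx2, a glutathione peroxidase, differed by 1.37 ± 0.21 and the proteoglycan gene Dcn by 1.49 ± 0.23. Ces1d (2.29) and the chemokine gene Ccl11 (3.08) were also named by the rule, but were low and lost or turned their direction in some settings. Aldh3a1, Nqo1 and Gpx2 are enzymes of detoxification.

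Yap1 itself was lower in the resting basal cells of Y libraries than in their other resting cells. It was at 157 CPM in Y1 and 75.9 in Y2 in the resting basal cells and at 229 and 533 in the others, while all N and E values lay between 28.8 and 45.9 CPM. The gap of −1.69 ± 0.54 between the classes was not among the calls (edgeR adjusted p = 0.294). By the number of markers a cell held, Yap1 in Y2 was 559 CPM in 374 cells with none, 410 with 1, 274 with 2, 77.9 with 3 and 74.0 in 25 cells with 4 or more. In Y1 the levels were 226, 217, 188, 167 and 135 CPM in the same order. In N1 they ran from 30.7 CPM with none to 41.6 with 4 or more. Both Y libraries thus had less Yap1 RNA in cells with more markers. The markers were chosen with their relation to YAP known, and this order was given no test.

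**Figure D5:**
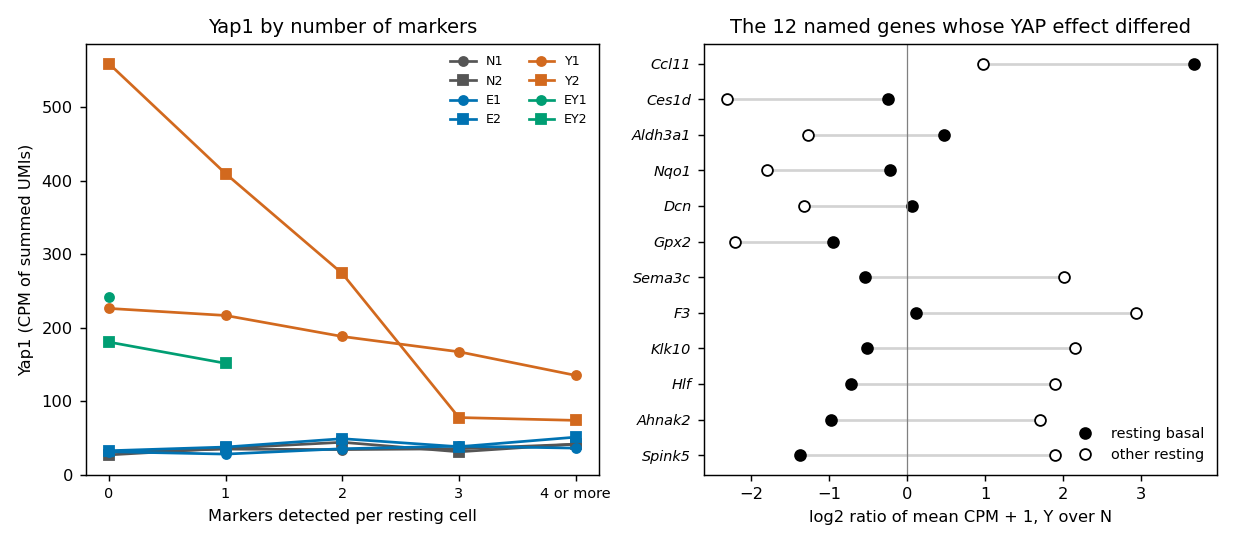
Left, Yap1 level (CPM of summed UMIs) against the number of the 7 markers detected per resting keratinocyte, 1 line per library, for points with at least 20 cells. Right, log2 ratio of the mean CPM + 1 of Y over N libraries in resting basal (filled) and other resting keratinocytes (open) for 12 genes; on the left Y2 drops from 559 CPM without a marker to 74.0 with 4 or more, and on the right Ahnak2, Klk10 and Sema3c are higher in Y only in the other cells.

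For the E6-E7 transgene the same model gave 0 calls in edgeR of 12057 genes (0%), 253 at an unadjusted p under 0.05, and 0 in DESeq2. The summed level of interferon-stimulated genes was 5525 and 5202 CPM in the resting basal cells of E1 and E2 and 5345 and 4949 CPM in the other resting cells. In N it was 1224 and 830 in the resting basal cells and 1131 and 1331 in the others. Isg15 was at 640 and 488 CPM in the other E cells and at 65.5 and 70.2 in the other N cells.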

How the data were processed

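Cells from tongue epithelium were profiled by 3′ droplet sequencing. The deposited files hold raw UMI counts per gene and barcode, made by the authors with Cell Ranger 5.0.0 on mm10, with no normalisation, for 32285 genes. Gene positions came from GENCODE M21, which held 32235 of them. Groups came from the genotype labels, and the study's methods name 2 mice for each genotype, so p-values measure the spread between 2 libraries a group. No doublet caller was run here. The members, the gene lists and the tests were chosen with earlier results of these data known.

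UMIs of the members were summed per library, with at least 20 members required, which left 6 libraries with 905761 to 12084474 UMIs in tested genes. EY1 and EY2 entered only with the planned minimum of 5 cells or with 2 markers. Sums were fitted with edgeR 4.0.16 in R 4.3.3 (quasi-likelihood F test, filterByExpr and TMM scaling, Benjamini-Hochberg adjustment, called under 0.05). With 6 libraries the additive YAP and E6-E7 effects equal Y against N and E against N. Differences between cell classes used a library block. An SE was derived from the fold change and the square root of its F statistic. The 19 genes of the rule were left out of all counts of calls. Named genes were the 8 largest called rises and falls (6 a direction for class differences), with at least 20 CPM, libraries of the groups not overlapping, and CPM in Ptprc-positive cells at most 5 times that in members, or else the 5 with the smallest p, plus up to 4 called genes of each list, otherwise its 2 with the highest level. The ratio to Ptprc-positive cells pooled each kind of cell over all 8 libraries. DESeq2 1.42.0 was an alternative, and the others varied the filter, scaling, marker number, mitotic genes, depth, cell limits and libraries. The code was tested on simulated data. Python 3.11.15, numpy 2.4.6, scipy 1.17.1, pandas 2.3.3 and matplotlib 3.10.9 were used.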

Additional observations from a re-analysis of the deposited data

Results flagged for a closer look

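In 31 genes the difference between Y and N was unequal in resting basal cells and in the other resting keratinocytes of the same libraries (edgeR adjusted p under 0.05). The classes are split by markers that fewer cells carried in Y, so that a change in which cells a class holds cannot be told apart from a change in the same cells. The log2 difference, resting basal minus other, was −2.94 for Spink5, −2.71 for Ahnak2, −2.60 for Hlf, −2.54 for Klk10, −2.45 for F3 and −2.40 for Sema3c. It was 1.37 for Gpx2, 1.49 for Dcn, 1.60 for Nqo1, 1.76 for Aldh3a1, 2.29 for Ces1d and 3.08 for Ccl11. Groups of 2 libraries are too small for a check on single outlying samples.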

How the results depend on the processing

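The share of resting basal cells was 24.8 points lower in YAP libraries (−24.8), and the gap stayed below 0 in all settings: −15.5 without any mitotic gene, −4.46 with cells thinned to 3000 UMIs, and −27.1 to −21.3 with 1 library left out. Counts of calls moved with many settings, and the cause was not tested beyond what each setting changes. With DESeq2 there were 25 calls for Y against N (and the YAP effect), 94 for E against N (and the E6-E7 effect) and 52 for the class difference in the YAP effect. With no filter on low counts these were 273, 372 and 483, with 77 for the class difference in the E6-E7 effect. Without TMM factors the class difference in the YAP effect had 49 calls. With a minimum of 5 cells, E against N had 80 calls, the YAP effect 27, the E6-E7 effect 89, and the class differences 215 for YAP and 15 for E6-E7. With 2 markers sufficient, the counts were 3 for Y, 92 for E, 87 for EY against N, 52 for the YAP effect, 145 for the E6-E7 effect, 247 for the class difference in YAP and 3 in E6-E7. With 4 markers required, the class differences had 62 and 1 calls, without any mitotic gene the one for E6-E7 had 2, and without upper limits the one for YAP had 48. Thinned cells left N1, E1, E2 and Y1, so that Y against N set 1 library against 1 and only the E libraries gave a spread; there were 7 calls for Y and the YAP effect, 65 for E (40 higher and 25 lower) and 10 for each class difference. Removing cells with 2 or more immune genes gave 182 and 1 for the class differences. Leaving out 1 library gave 0 to 4 calls for Y and the YAP effect, 2 to 74 for E and the E6-E7 effect, and 13 to 165 and 1 to 10 for the class differences in YAP and E6-E7. Leaving out 1 N or EY library with a minimum of 5 cells, chosen after seeing the data, gave 3 (without EY1), 29 (without EY2) and up to 79 calls for EY against N and 0 to 2 for the interaction. For EY and the interaction the remaining settings gave no value, as EY1 or EY2 then held fewer than 20 members. Among the named genes 3 values turned in direction, Ces1d with 4 markers (−6.19) and with thinned cells (−9.05), and Ccl11 without N1 (−1.90, and up to 3.37 without 1 of the other libraries). Over the alternatives, the 8 genes named for E kept their call in 105 of 136 values and their direction in all. The 5 genes named for Y stayed uncalled in 72 of 83 and were called in 11. The 12 genes named for the class difference kept their call in 159 of 201. These counts include the minimum of 50 cells, which left the same 6 libraries and so repeats the main fit. For E the calls were lost mainly where 1 library was left out. Libraries of different groups could not be paired, because the titles give the groups no shared replicate numbers. The EY values rest on 17 members, and in EY1 on members with 1950 CPM of immune genes.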
